A study of Mus musculus with 48 samples.

Results

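Vegfa, its receptor gene Kdr and the endothelial nitric oxide synthase gene Nos3 were followed in astrocytes and microvessels of the postnatal mouse brain. The 3 genes were chosen by name, as 1 ligand and 2 endothelial genes of the VEGF axis, and correspond to the probe codes RTS0079660 (Vegfa), RTS0069569 (Kdr) and RTS0071961 (Nos3) among 20175 codes in all. Expression was read on tissue sections by GeoMx spatial profiling with probes to the mouse transcriptome, in which UV light frees the code of each hybridized probe from a chosen part of a tissue section and the freed codes are sequenced and counted. The tissue was brain of wild-type "Noncarrier" mice from the Aldh1l1-eGFP (BAC) strain at postnatal day 0, 5 or 14 (P0, P5 and P14), with no treatment. Areas of interest (AOIs) were drawn by antibody staining in formalin-fixed sections, either astrocyte-enriched (ALDH1L1-positive, CD31-negative) or microvessel-enriched (CD31-positive, ALDH1L1-negative). There were 24 AOIs of each type on 4 slides (PO1, PO2, PO3 and PO5), with 2 regions of each age on every slide, and both AOI types were cut from every region. On each slide, the 2 regions of an age were taken as 1 animal, which gave 12 animals and n = 4 per age. The sample count in the study's methods does not plainly give this number of animals.

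An AOI is a patch of tissue selected by its staining, so astrocyte-enriched AOIs may hold neurons and other cells, and microvessel-enriched AOIs may hold pericytes and astrocyte endfeet. The labels give slide, region number and AOI type but no age. Regions 1 and 2 were taken as P0, 3 and 4 as P5, and 5 and 6 as P14, which was inferred from the Source Data of the study, where values are listed by age. The same match of values gave the codes their gene names, so it is no independent test of the ages. Nothing in the labels says which regions came from 1 mouse, and most P5 panels of the Source Data join AOIs of different slides. Pairing the P5 AOIs that way, without the slide in the model, left the calls below for Vegfa in astrocyte-enriched and for Kdr and Nos3 in microvessel-enriched AOIs as they were. If 2 slides carried tissue of the same mouse, the p-values given here are too small.

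Vegfa encodes vascular endothelial growth factor A, a secreted protein that drives the growth and permeability of blood vessels and that astrocytes and other cells of the developing brain release. Kdr encodes VEGF receptor 2, the tyrosine kinase receptor on endothelial cells that carries most of its mitogenic signal. Nos3 encodes endothelial nitric oxide synthase, which makes nitric oxide from arginine and lies downstream of VEGF receptor 2 through phosphorylation by Akt.

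In the RefSeq annotation of GRCm38.p6, Vegfa lies at chr17:46016993-46032377, Kdr at chr5:75932827-75979072 and Nos3 at chr5:24364816-24384474. The assay reads transcripts through probes and not promoters. The 250 bases before a listed transcript start of Vegfa (chr17:46032378-46032627, minus strand) and of Kdr (chr5:75978456-75978705, minus strand, inside the annotated gene span) are shown because the results turn on how the transcripts of these genes rose with age. They are from RefSeq (GRCm38.p6) and are written 5′ to 3′ along the gene. Capitals mark GGGCGG on either strand, the GC box bound by Sp1-type factors.
Vegfa: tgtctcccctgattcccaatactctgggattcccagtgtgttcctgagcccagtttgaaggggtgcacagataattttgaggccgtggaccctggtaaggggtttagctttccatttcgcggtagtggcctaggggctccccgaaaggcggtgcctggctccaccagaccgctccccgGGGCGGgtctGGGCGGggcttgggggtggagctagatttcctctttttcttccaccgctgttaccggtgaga
Kdr: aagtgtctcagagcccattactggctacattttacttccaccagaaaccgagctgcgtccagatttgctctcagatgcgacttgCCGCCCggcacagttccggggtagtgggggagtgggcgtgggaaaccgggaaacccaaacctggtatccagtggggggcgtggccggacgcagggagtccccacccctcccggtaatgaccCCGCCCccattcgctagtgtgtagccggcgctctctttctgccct
Both windows held 2 GC boxes, on the gene's strand in Vegfa and on the other strand in Kdr, and 32.7% of the 32851 listed windows of this length held at least 1. ACGTG, 1 form of the core of the hypoxia response element, was searched on both strands and occurred in neither window, against 16.6% of all windows. The form GCGTG was not searched for, and it occurs in the Kdr window shown. GGAA, the core bound by ETS factors, occurred 6 times before Vegfa and 4 times before Kdr on the 2 strands, and 93.4% of all windows held it.

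The total count of an AOI was 132739 to 5635825 in astrocyte-enriched AOIs (median 752304.5) and 46942 to 373762 in microvessel-enriched AOIs (median 174798). Counts of each AOI were scaled to its 75th percentile over all codes (Q3), which was 7 to 245 counts in astrocyte-enriched and only 3 to 18 counts in microvessel-enriched AOIs, so that the scaling of the latter is coarse. Levels below are Q3-normalized counts, averaged over the 2 AOIs of an animal and given as mean ± SD over 4 animals. A log2 fold change is from edgeR's quasi-likelihood test on the summed counts of the 2 AOIs, with the slide as a block, and is called where the Benjamini-Hochberg adjusted p over all codes tested was under 0.05. All 4 endothelial and barrier genes with a known code (Cldn5, Cdh5, Mfs2da and Tgp1) were higher in microvessel-enriched AOIs. Cldn5, a tight junction protein, was higher there by 3.04 ± 0.16 on the log2 scale (SE), and Cdh5 (VE-cadherin) by 1.91 ± 0.17. Of 8 astrocyte markers, 4 were higher in astrocyte-enriched AOIs (Aldh1l1, Slc1a2, Dtna and Apoe) and 0 in microvessel-enriched AOIs. Over all codes tested, 4.24% were higher in astrocyte-enriched and 3.02% in microvessel-enriched AOIs. Slc1a2, the glutamate transporter GLT-1, was nevertheless abundant in microvessel-enriched AOIs at P14, with 672 ± 433 normalized counts against 973 ± 522 in astrocyte-enriched AOIs, so the 2 AOI types were enriched and not pure.

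Vegfa rose between P0 and P14 in astrocyte-enriched AOIs. At P0 it was measured at 16.7, 16.8, 12.8 and 9.23 normalized counts in the animals of slides PO1, PO2, PO3 and PO5, at P5 at 20.1, 17.2, 31.7 and 26.7, and at P14 at 17.7, 29.7, 26.7 and 21.4. The P5 animal of PO3 includes region 3, whose astrocyte-enriched AOI was labelled with only 1 nucleus. That AOI had 22.2 normalized counts, against 41.3 in region 4. Every P5 and P14 animal was above every P0 animal, whereas the P5 and P14 animals overlapped. The group means were 13.9 ± 3.64, 23.9 ± 6.57 and 23.9 ± 5.37. From P0 to P14 the increase was 0.67 ± 0.21 on the log2 scale (SE), or 1.59-fold, with an edgeR adjusted p of 0.0179. From P0 to P5 it was 0.58 ± 0.21 (adjusted p = 0.100), which did not pass the threshold, and from P5 to P14 0.09 ± 0.19 (adjusted p = 0.802). In astrocyte-enriched AOIs, 7.31% of 20174 codes tested rose and 2.65% fell from P0 to P5, 13.4% rose and 21.4% fell from P0 to P14, and 6.34% rose and 6.21% fell from P5 to P14. With TMM scaling the split from P0 to P14 was 3975 up and 2864 down, against 2708 and 4311 with Q3, and from P5 to P14 it was 1491 and 742 against 1279 and 1253. The median of all codes moved by -0.31 from P0 to P14 with Q3 scaling and by -0.04 with TMM scaling, and Vegfa lay above that median by 0.98 and 1.03. Relative to the median code of its group, Vegfa stood at 1.08 times at P0, 2.11 times at P5 and 2.25 times at P14.

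Within the 2 pairs of slides the Vegfa values differed, and so did the shift of all codes. A pair of slides held only 2 animals per age. The edgeR p-values of such fits, here and below, lean on the spread pooled over codes more than on replicate animals. On slides PO3 and PO5 alone the P0 to P5 change was 1.29 ± 0.25 (edgeR adjusted p = 1.77e-05), and on PO1 and PO2 alone it was 0.11 ± 0.17 (adjusted p = 0.691). For P0 to P14 the values were 1.12 ± 0.24 (adjusted p = 6.61e-05) on PO3 and PO5 and 0.34 ± 0.17 (adjusted p = 0.0621) on PO1 and PO2. The median of all codes moved by 0.0244 on PO3 and PO5 and by -0.62 on PO1 and PO2 over the same interval. Relative to the median code of the same fit and interval, Vegfa was at 1.10 and 0.96 from P0 to P14, and at 1.40 and 0.27 from P0 to P5, and the difference between the slide pairs was not tested. The P14 call was also lost without the P0 animal of slide PO3 (0.56), the P0 animal of PO5 (0.50) or the P14 animal of PO2 (0.51). A linear mixed model on single AOIs, the kind of model that the study's methods name, gave 0.73 from P0 to P5 with an adjusted p of 0.0158, and so did call that step. Its only random term was the slide, so the 2 AOIs of an animal entered as separate values. The p-values of this model, here and below, thus do not take the animal as the unit. Single AOIs held 7 to 231 counts of Vegfa.

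Vegfa in microvessel-enriched AOIs was near the median code at every age. The means were 12.3 ± 2.27 at P0, 10.6 ± 2.88 at P5 and 9.91 ± 4.95 at P14, which is 1.05, 0.954 and 0.954 times the median code, and animals of all ages overlapped. These levels rest on 1 to 13 counts per AOI, with under 10 counts in 20 of 24 AOIs. The exact 95% Poisson interval of 1 count is 0.0253 to 5.57 and that of 13 counts is 6.92 to 22.2, which covers counting error only. No change was called (-0.15 ± 0.33 from P0 to P5, -0.35 ± 0.33 from P0 to P14, -0.19 ± 0.38 from P5 to P14, edgeR adjusted p 0.953, 0.528 and 0.841), and a change of up to -0.998 from P0 to P14 lies within the 95% interval. Negative control probes could not be told from the other codes here, so the background of the assay was not measured.

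**Figure D1:**
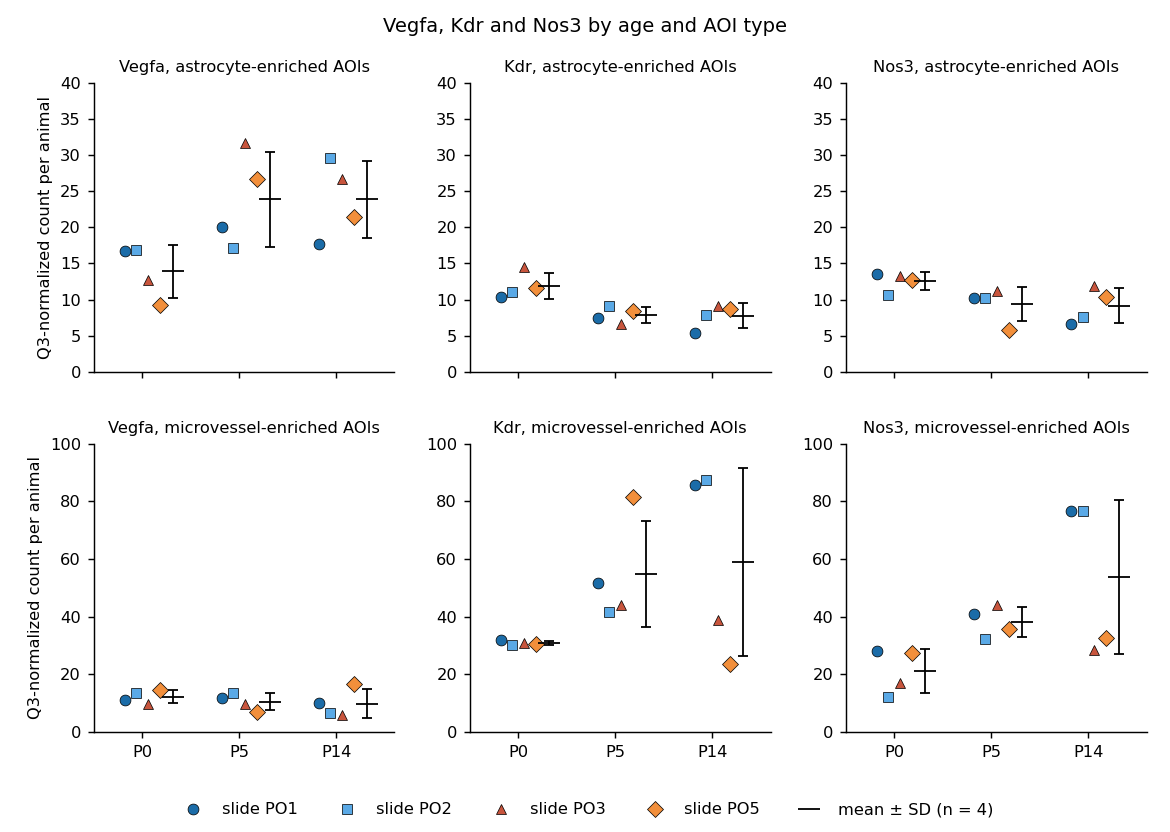
Q3-normalized counts of Vegfa, Kdr and Nos3 (y axis, linear, 0 to 40 in the upper and 0 to 100 in the lower row) by age (x axis) in astrocyte-enriched (upper row) and microvessel-enriched AOIs (lower row). Each symbol is 1 animal, shaped by slide, and bars are mean ± SD (n = 4). At P14 the Kdr and Nos3 values of slides PO1 and PO2 in microvessel-enriched AOIs lie between 76.6 and 87.4, and those of PO3 and PO5 between 23.6 and 38.9.

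Kdr, the receptor gene, was higher at P14 than at P0 in microvessel-enriched AOIs, and the difference came from 2 of the 4 slides. At P0 the animals of slides PO1, PO2, PO3 and PO5 had 31.8, 30.2, 30.9 and 30.5 normalized counts, at P5 51.9, 41.5, 44.2 and 81.6, and at P14 85.8, 87.4, 38.9 and 23.6. All P5 animals were above all P0 animals. At P14 the 4 animals fell apart, with PO1 and PO2 far above every P0 animal, PO3 slightly above and PO5 below. The means were 30.9 ± 0.716, 54.8 ± 18.4 and 58.9 ± 32.6. The P0 to P14 change was 0.87 ± 0.30 on the log2 scale (1.83-fold, edgeR adjusted p = 0.0438), just inside the threshold. The P0 to P5 change was of the same size, 0.84 ± 0.30 (1.78-fold, adjusted p = 0.328), but was not called, and from P5 to P14 the change was 0.04 ± 0.30 (adjusted p = 0.969). In microvessel-enriched AOIs, 0.301% of 12941 codes tested rose and 0.131% fell from P0 to P5, 7.27% rose and 7.27% fell from P0 to P14, and 3.16% rose and 2.01% fell from P5 to P14. With TMM scaling the split from P0 to P14 was 1216 up and 470 down, against 941 and 941 with Q3, and from P5 to P14 it was 501 and 124 against 409 and 260. In the fit with P0 and P5 alone, the P5 change of Kdr was 0.84 with an adjusted p of 0.000481.

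The Kdr call at P14 was not stable. On slides PO1 and PO2 alone Kdr rose by 1.48 ± 0.21 (edgeR adjusted p = 1.50e-10), and on PO3 and PO5 alone it was at -0.16 ± 0.31 (adjusted p = 0.833). Relative to the median code of these fits the values were 1.78 and -0.0884. Without slide PO1 the change was 0.60 (adjusted p = 0.373), without slide PO2 0.58 (adjusted p = 0.363), and of 16 fits that left out 1 slide or 1 animal, 11 lost the call (0.54 to 0.89 in those). The fits that kept it were those without slide PO3, slide PO5, or the P0 animal of PO3, the P14 animal of PO3 or the P14 animal of PO5. From P5 to P14 Kdr rose on PO1 and PO2 (0.82 ± 0.21, edgeR adjusted p = 0.00217) and fell on PO3 and PO5 (-1.22 ± 0.31, adjusted p = 0.00558). Single microvessel-enriched AOIs held 7 to 68 counts of Kdr. DESeq2 (1.06, adjusted p = 0.0633) and the linear mixed model (0.75, adjusted p = 0.139) did not call it.

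Nos3, the synthase gene, rose between P0 and P14 in microvessel-enriched AOIs. The animals of slides PO1, PO2, PO3 and PO5 had 27.99, 12.3, 17.1 and 27.4 normalized counts at P0, 40.8, 32.2, 44.2 and 35.7 at P5, and 76.6, 76.8, 28.3 and 32.8 at P14. All P5 and all P14 animals were above all P0 animals, by little on slides PO3 and PO5 at P14. The means were 21.2 ± 7.76, 38.2 ± 5.33 and 53.6 ± 26.7. The P0 to P14 change was 1.27 ± 0.29 on the log2 scale (2.41-fold, edgeR adjusted p = 0.00204). The steps from P0 to P5, 0.79 ± 0.30 (1.73-fold, adjusted p = 0.372), and from P5 to P14, 0.48 ± 0.29 (adjusted p = 0.407), were not called. The slide pairs, with 2 animals per age each, differed here too. From P0 to P14 the change was 1.92 ± 0.23 (edgeR adjusted p = 1.53e-14) on PO1 and PO2 and 0.27 ± 0.32 (adjusted p = 0.689) on PO3 and PO5. Relative to the median code these values were 2.22 and 0.35. The call was lost without slide PO2 (0.77, adjusted p = 0.134) and without the P0 animal of PO2 (0.93, adjusted p = 0.0594), which had the lowest P0 value. DESeq2 (1.46, adjusted p = 0.00373) and the linear mixed model (1.26, adjusted p = 0.00890) also called it. Single microvessel-enriched AOIs held 3 to 58 counts of Nos3.

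**Figure D2:**
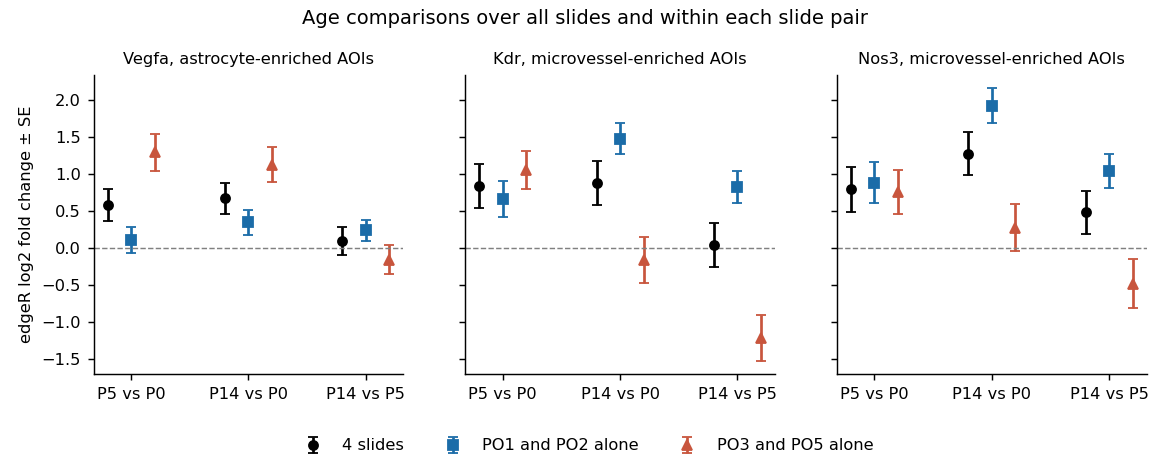
edgeR log2 fold changes (y axis) of Vegfa in astrocyte-enriched and of Kdr and Nos3 in microvessel-enriched AOIs for the 3 age comparisons (x axis), fitted to all 4 slides or to 1 pair of slides. Bars are the SE. For P14 vs P0 the Kdr value is 1.48 on slides PO1 and PO2 and -0.16 on PO3 and PO5, and the Vegfa value is 0.34 and 1.12.

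The split between slides at P14 was shared by the other endothelial genes. In microvessel-enriched AOIs at P14, Cldn5 was at 280, 244, 70.4 and 97.6 normalized counts on slides PO1, PO2, PO3 and PO5, and Cdh5 at 61.3, 63.4, 26.98 and 24.01. Mfs2da, the lipid transporter gene listed under this name in the Source Data, was at 77.2, 71.1, 26.1 and 27.6. Of the 8 astrocyte markers in these AOIs, Slc1a2 (means of 1043 on PO1 and PO2 and 300.0 on PO3 and PO5), Apoe (248 and 146), Gja1 (97.9 and 47.8), Dtna (29.8 and 18.6) and S100b (21.01 and 17.8) were also higher on PO1 and PO2. Aldh1l1 was alike (26.2 and 25.5), and Aqp4 (14.2 and 15.6) and Gfap (14.64 and 22.01) were higher on PO3 and PO5. The AOIs of PO3 and PO5 were not smaller, with a median of 10252.3 µm2 and 133 nuclei against 8489.6 µm2 and 111.5 nuclei on PO1 and PO2, but had fewer counts (median 122440 against 218277) and a lower Q3 (3 to 8 against 5 to 14). Their median code was also nearer to the Q3, at 0.667 of it against 0.458. Fewer endothelial cells in an AOI and less RNA per cell cannot be told apart in such samples, and the part that depth and Q3 had in the split was not tested.

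Ratios of 2 genes within 1 library do not depend on the scaling. The ratio of Kdr to Cdh5 counts was -0.18 ± 0.25 on the log2 scale at P0, 0.32 ± 0.35 at P5 and 0.34 ± 0.29 at P14. At P14 it was nearly the same on PO1 (117 against 84 counts), PO2 (66 against 50) and PO3 (19 against 13), and lower on PO5 (17 against 18). The ratio of Nos3 to Cdh5 counts was -0.74 ± 0.38 at P0, -0.16 ± 0.18 at P5 and 0.27 ± 0.11 at P14, and the 3 ages did not overlap. Against Cldn5 the Nos3 ratio was -2.49 ± 0.32, -2.06 ± 0.16 and -1.70 ± 0.14, and the Kdr ratio was -1.93 ± 0.33, -1.58 ± 0.40 and -1.63 ± 0.37. The split between slide pairs at P14 was thus not seen in the Nos3 ratios against Cdh5, which were 0.31, 0.31, 0.11 and 0.35 on PO1, PO2, PO3 and PO5. Against Cldn5 they were -1.88, -1.71, -1.58 and -1.61, so PO3 and PO5 were slightly above PO1 and PO2. These ratios were chosen after the split had been seen and were not tested. They compare the age course of pairs of probes and not the amounts of different transcripts.

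**Figure D3:**
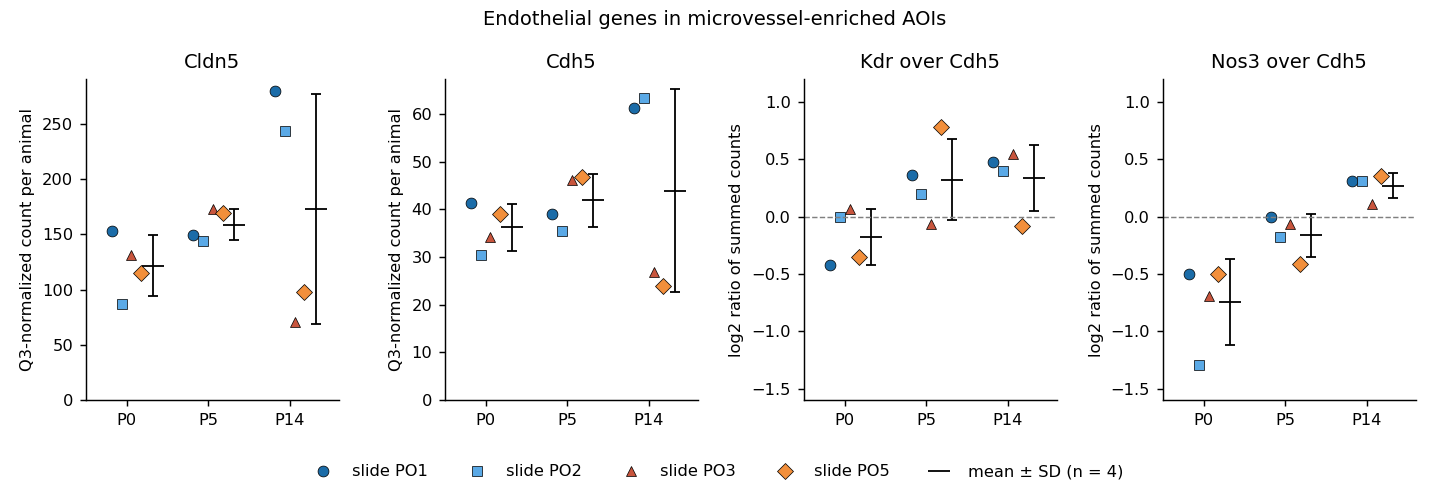
Q3-normalized counts of Cldn5 and Cdh5 (left panels) and log2 ratios of the summed counts of Kdr and of Nos3 over Cdh5 (right panels) in microvessel-enriched AOIs by age. Each symbol is 1 animal, shaped by slide, and bars are mean ± SD (n = 4). Cldn5 and Cdh5 split by slide at P14, where the Nos3 ratio lies between 0.11 and 0.35 on all 4 slides.

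Kdr and Nos3 in astrocyte-enriched AOIs stood below the median code, and the main edgeR fit over the 4 slides called no age change of either. Kdr was at 11.9 ± 1.78 normalized counts at P0, 7.88 ± 1.11 at P5 and 7.75 ± 1.70 at P14, and Nos3 at 12.5 ± 1.28, 9.38 ± 2.42 and 9.14 ± 2.43. All P5 and P14 animals lay below all P0 animals for Kdr, and for Nos3 the ages overlapped. The P0 to P14 changes were -0.60 ± 0.25 for Kdr (edgeR adjusted p = 0.0698) and -0.61 ± 0.25 for Nos3 (adjusted p = 0.0638), neither of which was called. The median code moved by -0.31 over the same interval, so that Kdr and Nos3 each lay 0.29 below it. With TMM scaling the changes were -0.31 and -0.33 (adjusted p = 0.198 and 0.152). From P0 to P5 the changes were -0.52 ± 0.26 and -0.41 ± 0.25 (adjusted p = 0.258 and 0.370), and from P5 to P14 -0.09 ± 0.25 and -0.20 ± 0.25 (adjusted p = 0.859 and 0.663), where the sign of Kdr turned with TMM scaling (0.06). The linear mixed model on single AOIs did call Kdr, from P0 to P5 (-0.53, adjusted p = 0.0136) and from P0 to P14 (-0.55, adjusted p = 0.00427), but not Nos3 (-0.42 at P14, adjusted p = 0.0670). That model took the 2 AOIs of an animal as separate values. On slides PO1 and PO2 alone edgeR called both from P0 to P14 (Kdr -0.72, adjusted p = 0.00540, and Nos3 -0.89, adjusted p = 0.000185) and Nos3 from P5 to P14 (-0.59, adjusted p = 0.00495). There the median code moved by -0.62 and -0.46, so that relative to it these values were -0.0994, -0.28 and -0.13. Most codes tested were called in that fit from P0 to P14, and a large part of them from P5 to P14. These calls were thus not particular to Kdr and Nos3. Single astrocyte-enriched AOIs held 3 to 78 counts of Kdr and 3 to 86 of Nos3.

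In order of level over ages and AOI types, Kdr was highest in microvessel-enriched AOIs at P14 and P5, then at P0, and lowest in astrocyte-enriched AOIs. The means at P14 and P5 differed by less than their spread, as did those of the astrocyte-enriched AOIs at P5 and P14. Nos3 followed the order P14, P5 and P0 in microvessel-enriched AOIs, with P14 and P5 overlapping, and was lower in astrocyte-enriched AOIs at each age. Vegfa was highest in astrocyte-enriched AOIs at P5 and P14, which did not differ beyond their spread, and its level in astrocyte-enriched AOIs at P0 was within the spread of the microvessel-enriched AOIs.

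Between the 2 AOI types, Kdr and Nos3 were higher on the vessel side and Vegfa on the astrocyte side. Over all ages, in a fit to 24 libraries that blocked on the animal, Kdr was higher in microvessel-enriched AOIs by 2.44 ± 0.19 on the log2 scale (5.43-fold, edgeR adjusted p = 1.05e-11, higher in 12 of 12 animals) and Nos3 by 1.92 ± 0.21 (3.78-fold, adjusted p = 1.66e-08, 12 of 12 animals). Vegfa differed by -0.65 ± 0.17 (0.636-fold, adjusted p = 0.0115), with 1 of 12 animals, the P0 animal of slide PO5, going the other way. Of 20083 codes tested, 3.02% were higher in microvessel-enriched and 4.24% in astrocyte-enriched AOIs. With TMM scaling these were 710 and 385 codes, against 606 and 851 with Q3. For Vegfa the call was lost within either slide pair (-0.68, adjusted p = 0.0644, and -0.60, adjusted p = 0.286) and without slide PO1 (-0.63, adjusted p = 0.0669) or PO3 (-0.55, adjusted p = 0.0747).

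The difference between AOI types widened with age. Within animals, the log2 ratio of microvessel-enriched to astrocyte-enriched levels of Kdr was 1.31 ± 0.20 at P0, 2.61 ± 0.43 at P5 and 2.604 ± 1.13 at P14, and that of Nos3 was 0.65 ± 0.44, 1.94 ± 0.36 and 2.32 ± 1.10 (n = 4 each). For Vegfa it was -0.15 ± 0.51, -1.10 ± 0.71 and -1.27 ± 0.86. The test of the interaction of AOI type and age gave a change of 1.28 ± 0.32 for Kdr and 1.22 ± 0.33 for Nos3 at P5 against P0 (edgeR adjusted p = 0.00694 and 0.0128). At P14 against P0 it gave 1.69 ± 0.31 for Kdr and 2.06 ± 0.31 for Nos3 (adjusted p = 7.81e-05 and 1.14e-06). These edgeR p-values lean on the spread pooled over codes more than on the 4 animals of an age. The within-animal ratios above had SDs of 1.13 and 1.10 at P14. For Vegfa the changes of -0.76 ± 0.36 (adjusted p = 0.287) and -1.002 ± 0.36 (adjusted p = 0.0696) did not pass. Of the 4 endothelial and barrier genes with a known code, 2 also passed at P14. These were Mfs2da at 0.84 ± 0.28 and Cldn5 at 0.82 ± 0.27 (edgeR adjusted p = 0.0437 and 0.0475). Mfs2da passed at P5 too (1.09 ± 0.30, adjusted p = 0.0152). Cdh5 (0.71 ± 0.33) and Tgp1 (-0.58 ± 0.21) did not pass at P14 (adjusted p = 0.216 and 0.0759). Over all codes the difference rose in 1.22% and fell in 3.9% of codes at P5, and rose in 3.05% and fell in 5.75% at P14. With total counts in place of Q3 the P14 split was 853 up and 791 down, against 612 and 1155. The P14 interaction was 2.28 for Kdr and 2.80 for Nos3 on slides PO1 and PO2 alone, and 0.31 and 0.60 on PO3 and PO5 alone (adjusted p = 0.860 and 0.625). With all libraries thinned to the lowest total, the calls for Kdr (1.27 at P14 and 0.66 at P5, edgeR adjusted p = 0.230 and 0.658) and Nos3 (1.26 at P14 and 1.13 at P5, adjusted p = 0.183 and 0.323) were lost.

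**Figure D4:**
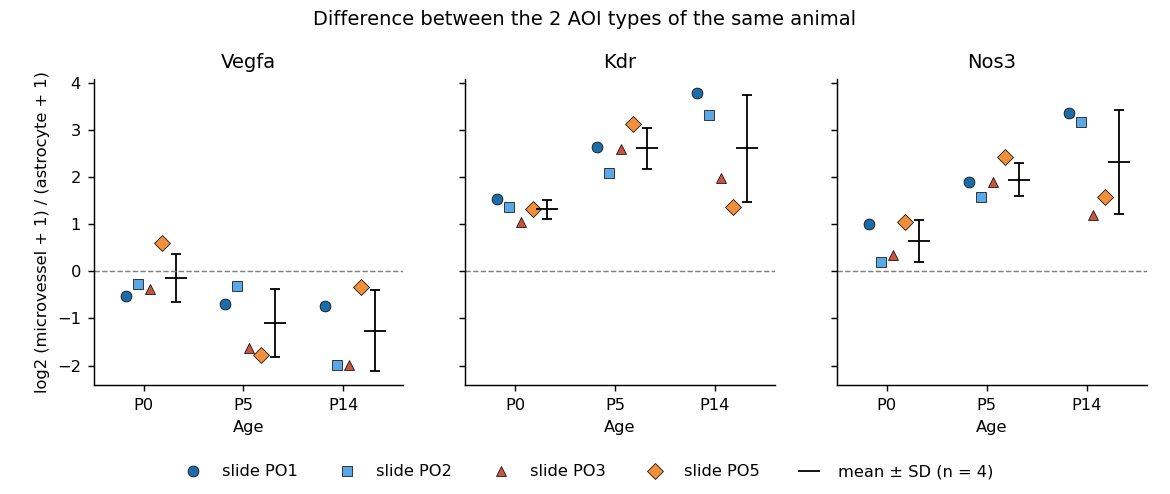
Log2 ratio of microvessel-enriched to astrocyte-enriched Q3-normalized counts (y axis, pseudocount 1) of Vegfa, Kdr and Nos3 in each animal by age (x axis). Each symbol is 1 animal, shaped by slide, and bars are mean ± SD (n = 4). All 12 animals lie above 0 for Kdr and Nos3, and 1 of 12 does for Vegfa.

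The ligand and the endothelial genes of the same animal were then set against each other. The log2 ratio of Kdr in microvessel-enriched AOIs to Vegfa in astrocyte-enriched AOIs was 1.13 ± 0.37 at P0, 1.15 ± 0.48 at P5 and 1.10 ± 0.95 at P14. The changes against P0 were 0.02 at P5 and -0.03 at P14 (two-sided exact permutation tests of 4 against 4 animals, p = 0.943 and 0.914, adjusted p = 0.943 for both). The ratio of Nos3 to Vegfa was 0.54 ± 0.78, 0.68 ± 0.29 and 1.02 ± 0.86, with changes of 0.14 and 0.48 (exact permutation tests, p = 0.743 and 0.457, adjusted p = 0.943 for both). The smallest p that such a test can give is 0.0286. With SDs of up to 0.95 on the log2 scale, 4 animals per age do not show that ligand and receptor rose in proportion. The slide pairs went apart, since from P0 to P14 the Kdr ratio changed by 1.02 on PO1 and PO2 and by -1.09 on PO3 and PO5, and the Nos3 ratio by 1.55 and -0.60. On slide PO1 the P14 animal combined the lowest Vegfa of its age (17.7) with high Kdr (85.8), and on slide PO5 Vegfa (21.4) stood beside the lowest Kdr (23.6).

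Across the 12 animals, Kdr and Nos3 in microvessel-enriched AOIs rose and fell together, with Pearson's r = 0.760 (p = 0.00359, permutation test) and Spearman's rho = 0.818 (p = 0.00159). The p-values adjusted over the 3 relations were 0.0108 and 0.00477. Both values come from the same library and share its scaling. Without the 2 animals farthest from the median Kdr level r was 0.491 (permutation p = 0.148) and rho 0.685 (p = 0.0354, adjusted p = 0.0591). Neither passed after adjustment. Leaving out the ends of the range can lower r by itself, so this does not show how far the relation rests on those animals. Within slides PO1 and PO2 r was 0.938 and within PO3 and PO5 0.411 (exact p = 0.00139 and 0.397, 6 animals each), and for deviations from the age means r was 0.652 (adjusted p = 0.0591) and rho 0.783 (adjusted p = 0.0108). Vegfa in astrocyte-enriched AOIs had r = 0.481 with Kdr (permutation p = 0.114, adjusted p = 0.117) and rho = 0.538 (p = 0.0753). With Nos3 it had r = 0.475 (permutation p = 0.117, adjusted p = 0.117) and rho = 0.734 (p = 0.00896, adjusted p = 0.0134), and without the 2 animals farthest from the median of Vegfa these were 0.518 and 0.673. The rank relation of Vegfa with Nos3 did not pass without those 2 animals (adjusted p = 0.0591), with total counts in place of Q3 (rho = 0.552, adjusted p = 0.101), within PO3 and PO5 (rho = 0.771, adjusted p = 0.262) or without slide PO2 (rho = 0.583, adjusted p = 0.162). For deviations from the age means, r of Vegfa was 0.103 with Kdr and -0.12 with Nos3, so within an age no relation was detectable with 12 animals.

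**Figure D5:**
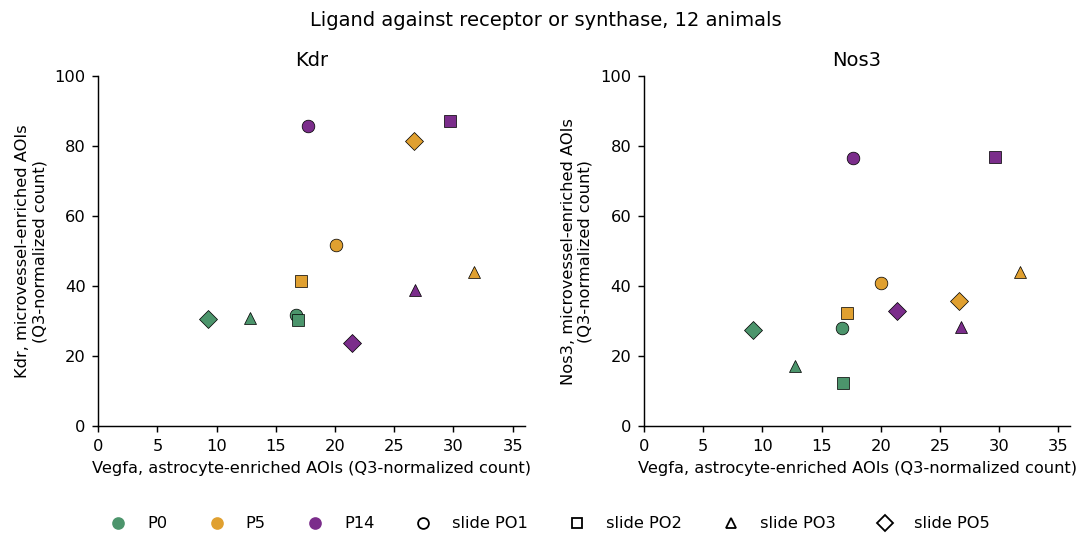
Q3-normalized counts of Vegfa in astrocyte-enriched AOIs (x axis) against Kdr (left) or Nos3 (right) in microvessel-enriched AOIs of the same animal (y axis). Each of the 12 symbols is 1 animal, coloured by age and shaped by slide. P0 animals lie at the lower left, with Vegfa at 9.23 to 16.8, and the P14 animals spread from 23.6 to 87.4 in Kdr.

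The genes most like each of the 3 were sought by Pearson's r over the 12 animals among 10087 other codes of at least median level, as a description without a test. The 2 codes nearest to Vegfa in astrocyte-enriched AOIs had r = 0.898 and 0.896, and those nearest to Kdr and Nos3 in microvessel-enriched AOIs had 0.962 and 0.944, and 0.970 and 0.952, all without a gene name here. Among the named genes, Aqp4, the water channel of astrocyte endfeet, ranked 22 for Vegfa (r = 0.812), Apoe 28 (0.797) and the connexin gene Gja1 75 (0.737). The other astrocyte markers ranked lower, Slc1a2 489 (0.626), Aldh1l1 562 (0.616), Dtna 1266 (0.522), Gfap 3472 (0.208) and S100b 3666 (0.175). Mfs2da ranked 21 for Kdr (0.855) and 5 for Nos3 (0.934), Cdh5 46 for Kdr (0.835) and 558 for Nos3 (0.728), and Cldn5 157 and 355. Tgp1 ranked 1379 for Kdr (0.517) and 1829 for Nos3 (0.484). For Nos3 the astrocyte marker Apoe ranked 348 (0.775), ahead of Cldn5 and Cdh5, with Slc1a2 at 639 (0.709) and Gja1 at 713 (0.693). The other astrocyte markers ranked lower for Nos3, from Dtna at 1629 (0.520) to Aqp4 at 4423 (0.0579). For Kdr the astrocyte markers ranked 1278 (Apoe, 0.532) or lower. Hmgb1 ran opposite to Vegfa (r = -0.51) and to Nos3 (r = -0.57).

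Of 27 genes listed for VEGF and angiogenic signalling, 9 had a known code, the 3 genes above among them. From P0 to P14, 1 of these 9 rose in astrocyte-enriched AOIs (Vegfa) and 2 fell, Tgfb2, a transforming growth factor beta ligand, by -0.94 ± 0.28 on the log2 scale (edgeR adjusted p = 0.0143) and Hmgb1, a chromatin protein that can also act as a secreted signal, by -1.06 ± 0.17 (adjusted p = 7.01e-05). Over all codes 13.4% rose and 21.4% fell, so these counts are near the background. The median of the 9 was -0.49 against -0.31 for all codes. Angpt1, the Tie2 ligand angiopoietin 1, changed by -0.17 ± 0.28, Tgfb1 by -0.31 ± 0.35, and the Wnt ligand genes Wnt3 and Wnt7a by -0.26 ± 0.34 and -0.49 ± 0.26, with adjusted p of 0.133 to 0.627 for the 4. In microvessel-enriched AOIs, 5 of the 9 passed the filter on low counts and 2 rose, Kdr and Nos3, where 7.27% of all codes rose, with a median of 0.22 against -0.15 for all codes. Tgfb1, Tgfb2, Wnt3 and Wnt7a did not pass it there. Of 10 endothelial and barrier genes 4 had a known code, and in microvessel-enriched AOIs 1 of the 4 rose from P0 to P14 against the same background, Mfs2da by 0.98 ± 0.28 (adjusted p = 0.0150). Cldn5 was at 0.50 ± 0.29, Cdh5 at 0.31 ± 0.26 and Tgp1, named as in the Source Data, at -0.02 ± 0.26 (adjusted p = 0.259, 0.476 and 0.969). In these AOIs, where 7.27% of all codes rose, 4 of the 8 astrocyte markers also rose from P0 to P14, Slc1a2 by 5.39 ± 0.38, Apoe by 2.99 ± 0.27, Gja1 by 2.05 ± 0.24 and S100b by 1.00 ± 0.29, while Vegfa did not, and their part in the levels of Kdr and Nos3 was not tested.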

How the data were processed

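Mouse brain AOIs of 2 types were profiled with the GeoMx whole transcriptome probes. The authors processed the reads with the GeoMx NGS Pipeline and deposited raw deduplicated counts per code for each of 48 AOIs. The deposited count files give codes without gene names. Codes were named by matching their Q3-scaled counts to the values listed per gene in the study's Source Data, and 251 of 252 values over 21 genes matched. That match used a fitted scale (19.2578, against 19.2044 from the files), a raised Q3 in 6 AOIs and pairs of AOIs from any slide. With AOIs of 1 slide 175 values matched, and with the files' own Q3 and scale 5. Any other code matched at most 6 of the 12 values of a gene. The members, gene lists and tests were chosen with earlier results of these data known.

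The authors scaled to Q3 after a filter on the limit of quantification and tested with a linear mixed model on single AOIs. Here negative control codes were not identified, so that filter was not applied. For each animal the pair of AOIs was added up, and these sums were scaled to Q3, filtered with filterByExpr and tested with edgeR (version 4.0.16, limma 3.58.1, R 4.3.3), with the slide as a block within an AOI type and the animal as a block between types, and Benjamini-Hochberg adjustment over all codes at 0.05. Ratios and correlations were tested by exact or 100000-fold permutation on log2(value + 1) with scipy 1.17.1. Named genes were the 3 members, the listed pathway genes and markers with a code, and the 2 codes nearest to each member. Alternatives were DESeq2 1.42.0, TMM or total-count scaling, no filter, thinning, the mixed model, no block, only the 2 ages compared, each slide pair, and leaving out slides, animals, 1 region or 1 AOI whose title and slide label differ. The P5 pairing of the Source Data, where most panels join AOIs of different slides, was an alternative chosen after seeing the data. Scripts were tested on simulated data.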

Additional observations from a re-analysis of the deposited data

Results flagged for a closer look

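Nos3 in astrocyte-enriched AOIs at P5 had 1 animal apart from the others. Slide PO5 had 5.82 normalized counts, from 9 and 3 counts in its regions 3 and 4, against 10.2 to 11.2 in the other animals. On the scale of log2(normalized count + 1), the gap was 0.852 of the range of the group. Chance gives such a gap in about 1 of 20 groups, and 24 groups of 4 were examined.

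The age change of Kdr and Nos3 differed between the AOI types by the test of the interaction. Mfs2da passed the same test at P5 and P14, and Cldn5 at P14, so this was not particular to Kdr and Nos3. The difference was 1.69 on the log2 scale for Kdr at P14 against P0 and 1.28 at P5 against P0. For Nos3 it was 2.06 at P14 and 1.22 at P5. On slides PO3 and PO5 alone the P14 values were 0.31 and 0.60 and were not called.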

How the results depend on the processing

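The higher level of Kdr and Nos3 in microvessel-enriched AOIs held its direction and call under every alternative run (2.01 to 2.72 and 1.54 to 2.16 on the log2 scale, leave-one-out fits 2.17 to 2.55 and 1.67 to 2.06). The age comparisons did not, and no cause was tested. Counts were low, with a Q3 of 3 to 18 in microvessel-enriched AOIs, and the part of this in the age comparisons was not tested.

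In microvessel-enriched AOIs, Kdr from P0 to P14 was no longer called with DESeq2 (1.06), thinning (0.82), the mixed model (0.75), only the 2 ages (0.78) or without region 3 of slide PO3 (0.86), and turned on slides PO3 and PO5 (-0.16). From P5 to P14 Kdr turned with thinning (-0.14), the mixed model (-0.0289), 2 ages (-0.0222) and PO3 and PO5 (-1.22), and was called on PO1 and PO2 (0.82). From P0 to P5 it was called with 2 ages (0.84) and on PO3 and PO5 (1.06). Nos3 was not called from P0 to P14 on PO3 and PO5 (0.27), was called from P0 to P5 with 2 ages (0.82) and from P5 to P14 on PO1 and PO2 (1.04), and turned there on PO3 and PO5 (-0.48). Vegfa turned on PO1 and PO2 from P0 to P5 (0.0735) and on PO3 and PO5 from P5 to P14 (0.41).

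In astrocyte-enriched AOIs, Vegfa from P0 to P5 was called with DESeq2 (0.77), TMM (0.76), the mixed model (0.73), 2 ages (0.49) and on PO3 and PO5 (1.29). From P0 to P14 it was not called on PO1 and PO2 (0.34), and from P5 to P14 it turned on PO3 and PO5 (-0.16). Kdr from P5 to P14 turned with TMM (0.0587) and on PO3 and PO5 (0.36), as did Nos3 on PO3 and PO5 (0.28). From P0 to P14 both were called on PO1 and PO2 (-0.72 and -0.89), where most codes tested were called. Of 13 alternatives, 2 called Kdr and 2 called Nos3 from P0 to P14, and 2 called Kdr from P0 to P5. Of 16 fits without 1 slide or 1 animal, 2 called Kdr and 3 called Nos3 from P0 to P14.

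The change of the AOI type difference lost its call for Kdr with thinning (1.27 at P14, 0.66 at P5), on PO3 and PO5 (0.31 at P14) and on PO1 and PO2 (0.99 at P5), and for Nos3 with thinning (1.26 and 1.13) and on PO3 and PO5 (0.60 and 1.37). That of Vegfa was called with TMM at P14 (-1.07) and on PO3 and PO5 at P5 (-1.87). The type difference of Vegfa was not called on PO1 and PO2 (-0.68) or PO3 and PO5 (-0.60).

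The Kdr to Vegfa ratio moved to 1.02 (P14) and 0.43 (P5) on PO1 and PO2 and to -1.09 and -0.40 on PO3 and PO5, and turned at P14 with total counts (0.11) and at P5 without region 3 of PO3 (-0.20). The Nos3 to Vegfa ratio at P14 moved to 1.55 and -0.60. The correlation of Kdr with Nos3 lost its Pearson call for deviations from the age means (0.65, where Spearman's rho of 0.783 kept its call), on PO3 and PO5 (0.41) and without the 2 farthest animals (0.49), and that of Vegfa with Nos3 turned for deviations (-0.12).

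Samples of 1 slide at 2 ages had a mean correlation of 0.0054 to 0.0917 in their deviations from the age means, so the slide name was not shown to pair them. Without the replicate block the P5 change of the type difference was no longer called for Kdr (1.36) or Nos3 (1.20), and calls over all codes fell from 1767 to 275 at P14 and from 1029 to 139 at P5. In the age comparisons, Kdr, Nos3 and Vegfa had the same calls without it.

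Leaving out 1 slide or 1 animal in turn gave 0.54 to 1.27 for Kdr from P0 to P14 in microvessel-enriched AOIs, where 11 of 16 fits lost the call, and -0.36 to 0.59 from P5 to P14. It gave 0.77 to 1.63 for Nos3 from P0 to P14 (2 of 16 lost). For Vegfa in astrocyte-enriched AOIs it gave 0.50 to 0.94 from P0 to P14 (3 of 16 lost), 0.36 to 0.84 from P0 to P5 (4 called, those without slide PO1, slide PO2, the P0 animal of PO1 or the P5 animal of PO2) and -0.17 to 0.28 from P5 to P14. In microvessel-enriched AOIs Vegfa ranged from -0.34 to 0.10 from P0 to P5 and from -0.59 to 0.0915 from P5 to P14, and Kdr in astrocyte-enriched AOIs from -0.26 to 0.0920 from P5 to P14. The type difference of Vegfa ranged from -0.80 to -0.55 (2 of 16 lost) and its change at P14 from -1.36 to -0.75 (called without slide PO1 or the P14 animal of PO5). The change for Nos3 at P5 ranged from 1.06 to 1.38 (lost without slide PO2, slide PO3 or the P0 animal of PO2). The Kdr to Vegfa ratio at P14 ranged from -0.49 to 0.45, and the correlation of Kdr with Nos3 from 0.68 to 0.93 (lost without slide PO1 or PO2).

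Counts over all codes moved too. From P0 to P5 in microvessel-enriched AOIs, 56 codes were called with all 3 ages, 507 with 2 ages, 29 with TMM and 28 with thinning. From P0 to P14 there, 1882 were called, 1067 with DESeq2 and 1030 with thinning. In astrocyte-enriched AOIs from P0 to P5, 2008 were called, 3475 with the mixed model and 6861 with 2 ages. Between AOI types, 1457 were called, 968 with DESeq2 and 706 with thinning.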
